A study of Mus musculus with 115 samples.

Results

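Prox1, Stxbp6, Dock10, Plk5, Trpc6 and Ahcyl2 are genes that mark dentate granule cells, the principal neurons of the dentate gyrus. They were chosen by name, with earlier results of these data known. They make up 6 of the 22870 genes in the deposited count table, where each had counts in all 4 groups of cells. Their levels were read in each of 95 single cells, across treatment, axonal label and order of the cells' titles. It was also asked which of them went missing together in a cell.

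The study sampled the cytosol of single granule cells with a patch pipette and sequenced each cell as a library of its own, made with Nextera XT. All mice carried Rbp4-Cre, and a retrograde AAV encoding EGFP was given into the hippocampus opposite the recorded side, so that EGFP reports a commissural axon. The recorded side received either saline or kainic acid (KA), an agonist of glutamate receptors that triggers seizures, together with an AAV for Cre-dependent mCherry that shows the injection site. Cells were taken there 2 weeks later, whether or not they had mCherry. Saline gave 27 EGFP- and 5 EGFP+ cells, and KA gave 36 EGFP- and 27 EGFP+ cells. The study states 57 saline EGFP- cells that passed its quality control, and 27 were analysed here, while the numbers of the other 3 groups match. The study states 3 mice for each saline class, 3 for the KA EGFP- cells and 9 for the KA EGFP+ cells, but no label ties a cell to its mouse. With the mice unknown, each group counts as 1 sample and groups were compared without a test. Every interval below covers counting error or the number of cells only.

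Granule cells receive the input of the entorhinal cortex and send mossy fibres to the hilus and to CA3. Their identity is set and kept by the homeobox factor Prox1, and the other 5 genes encode proteins of vesicle release, the cytoskeleton, membrane currents and ion transport that these cells make in larger amounts than the neighbouring pyramidal cells. Seizures are known to alter the gene expression of granule cells for weeks and to make their mossy fibres sprout.

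Depth per cell ranged from 1277978 to 56183007 counts, and 1469 to 9945 genes had a count. The median number of genes was 4448 (EGFP-) and 4325 (EGFP+) after saline, and 5698.5 (EGFP-) and 6231 (EGFP+) after KA. Titles fall into a first series (M1 to M48, KA cells only) and a second series (M201 to M272, both treatments). The KA EGFP- cells of the first series had a median of 6974 genes, those of the second 3707. Microglia marker transcripts made up at least 0.1% of counts after saline in 12 of 27 EGFP- and 4 of 5 EGFP+ cells, and after KA in 6 of 36 EGFP- and 10 of 27 EGFP+ cells. The quality labels do not match the deposited table of kept cells: 13 kept cells are labelled as failed and 12 of the 20 cells left out as passed, and in an alternative each cell took the group of the title before it.

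The label of granule cells was held against 20 other granule cell genes, whose summed level had a median of 5176 CPM, counts scaled to 1000000 per cell, in EGFP- and 2935 in EGFP+ cells after saline, and of 2296 (EGFP-) and 2537 (EGFP+) after KA. The 4 markers of CA1 pyramidal cells had a median sum of 0 CPM in 3 groups and 35.6 in KA EGFP+ cells. Several marker sums of other neurons were higher after KA in EGFP- cells: the median was 761 CPM against 228.4 after saline for 8 interneuron markers, 250.8 against 113 for 5 CA3 markers and 47.5 against 0.510 for 6 mossy cell markers. Of the interneuron markers, Slc32a1, Sst, Vip and Nxph1 had no count in any KA EGFP- cell, while the mossy cell marker Drd2 had counts in these cells only. The sums overlapped between the groups, from 0 to 2799 CPM after saline and 0 to 4306 CPM after KA for the interneuron markers. In EGFP+ cells the medians after KA were 662, 233.85 and 10.4 CPM for the 3 lists, and 62.4, 34.1 and 21.8 CPM after saline. The part of these transcripts in the levels below was not tested.

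Promoters are shown for the pair of members with the largest differences after KA, Stxbp6 and Plk5, and for the member that lay higher, Trpc6. Each has a single entry in the promoter table, taken from RefSeq (build GRCm38.p6), which runs from 250 bases before to 50 bases after the annotated start. The sequences are 5′ to 3′ on the strand of the gene, and capitals mark matches to the motifs named below. Stxbp6 lies on the minus strand (chr12:45074434-45074733), Plk5 on the plus strand (chr10:80356209-80356508) and Trpc6 on the plus strand (chr9:8543892-8544191).
Stxbp6: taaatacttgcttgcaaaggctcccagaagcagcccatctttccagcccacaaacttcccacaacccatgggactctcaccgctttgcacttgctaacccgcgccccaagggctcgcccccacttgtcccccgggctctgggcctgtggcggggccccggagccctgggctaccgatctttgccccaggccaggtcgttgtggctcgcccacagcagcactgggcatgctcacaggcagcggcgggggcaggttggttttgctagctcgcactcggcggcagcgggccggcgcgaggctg
Plk5: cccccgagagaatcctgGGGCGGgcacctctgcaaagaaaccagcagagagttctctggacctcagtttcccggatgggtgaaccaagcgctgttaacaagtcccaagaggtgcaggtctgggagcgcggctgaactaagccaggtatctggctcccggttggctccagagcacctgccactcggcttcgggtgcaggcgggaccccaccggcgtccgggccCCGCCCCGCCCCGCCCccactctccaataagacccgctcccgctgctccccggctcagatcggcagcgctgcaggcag
Trpc6: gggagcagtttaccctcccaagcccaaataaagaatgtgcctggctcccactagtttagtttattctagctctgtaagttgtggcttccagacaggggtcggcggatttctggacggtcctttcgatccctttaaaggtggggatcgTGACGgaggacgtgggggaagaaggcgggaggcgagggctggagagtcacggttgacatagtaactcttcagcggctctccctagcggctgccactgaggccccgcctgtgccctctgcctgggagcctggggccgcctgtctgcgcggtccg

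Both strands were searched for the cAMP response element TGACGTCA, its first part TGACG alone, the AP-1 element TGAGTCA, the E-box CAGCTG, the E-box variant CATCTG, the E-box CACGTG, the GC box GGGCGG and the TATA box TATAAA. The short form lies within the long one, so each match of the long form is also one of the short form. The Stxbp6 window held none of these letters. The Plk5 window held 4 GC boxes, 3 of them in a row on the other strand with 1 shared base between neighbours, and 35.7% of 32851 promoters of the same length held at least 1. The Trpc6 window held 1 TGACG, as did 20.8% of promoters. Of the others, the Ahcyl2 window held 1 AP-1 element, found in 5.20% of promoters, and 2 GC boxes, while Prox1 and Dock10 each held 2 GC boxes and 1 CATCTG (17.2%), and Prox1 also 1 TATA box (13.6%). Over all promoters, TGACGTCA occurred in 1.79%, CAGCTG in 16.3% and CACGTG in 7.15%. These matches describe the windows only.

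In EGFP- cells, Stxbp6, Plk5 and Dock10 lay lower after KA than after saline, and Ahcyl2 lay lower by a smaller step. With all titles together, Prox1 lay close to its saline level and Trpc6 lay higher. Within the second series, the only one with both treatments, Prox1 differed by -1.77 log2 units and Trpc6 by 0.23. Levels are means over cells of log2(CPM+1), with the SD over cells. Over all titles, 3 of the 6 members were lower by 2 or more log2 units, a step that 2.21% of 9471 measured genes reached. The median difference of the members was -2.33, against 0.43 for all measured genes. As the members were chosen with earlier results of these data known, this contrast describes them and is not a test. The difference exceeded the SD within groups for Stxbp6 (-4.79 against an SD of 3.41) and Plk5 (-3.33 against 3.05), and was smaller than it for the other 4.

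**Figure D1:**
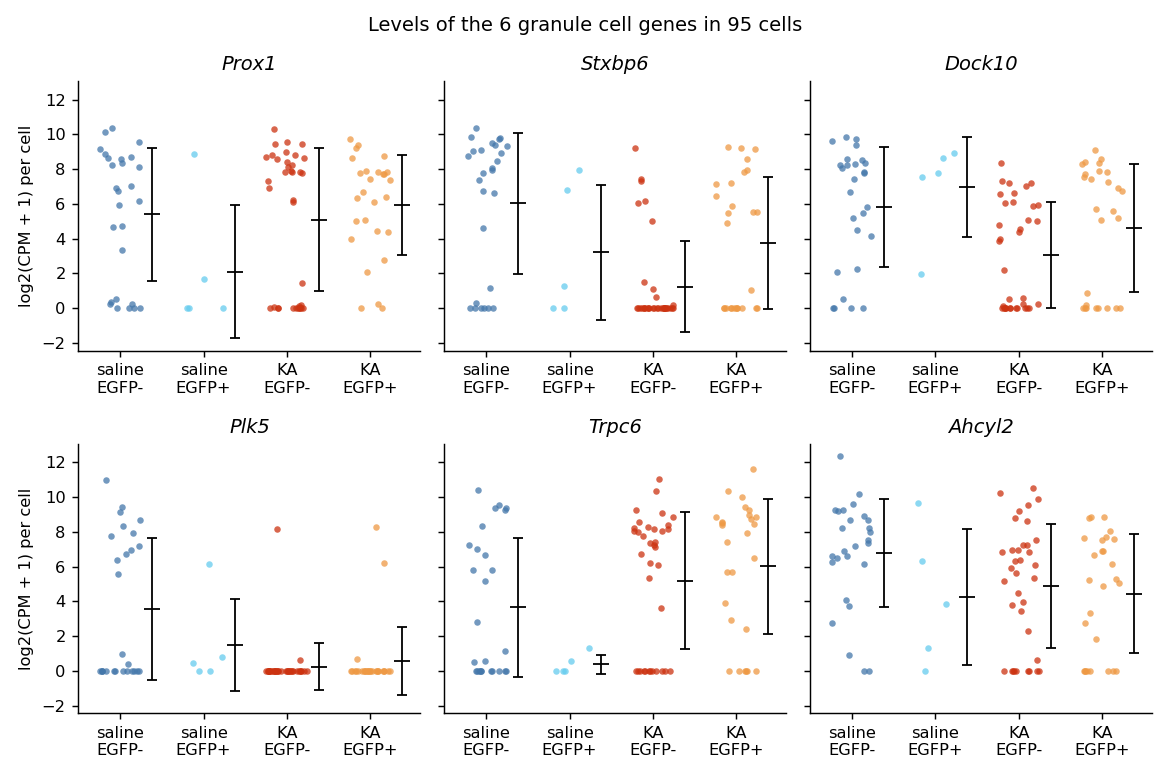
Level of each member in every cell, as log2(CPM + 1), by group; points are cells, and the bar beside them gives the mean and SD over cells. In each group some cells lie at or near 0, except for Dock10 in saline EGFP+ cells, and Plk5 stands above 10 CPM in 3 of the 63 KA cells.

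Prox1 encodes the transcription factor that specifies granule cells (chromosome 1, 190118035 to 190170714, minus strand, GRCm38). Its level in saline EGFP- cells ran from 0 to 1311 CPM with a median of 104, and in KA EGFP- cells from 0 to 1270 CPM with a median of 189. The ranges overlapped nearly entirely, and each group held both cells with a high level and cells with none. The mean log2 level was 5.10 (SD 4.10) after KA and 5.40 (SD 3.81) after saline, a difference of -0.30. After thinning every cell to 1000000 counts, Prox1 was counted in 24 of 36 KA EGFP- cells (95% Clopper-Pearson interval 49.0 to 81.4%) and in 19 of 27 saline EGFP- cells (49.8 to 86.2%). The sign was not stable: the difference was -1.77 within the second series and 0.73 with the group of the title before, and leaving out 1 block of consecutive titles gave 0.29 (saline M203 to M208), 0.08 (KA M209 to M216) or 0.02 (KA M266 to M272). Among its exon bases, 133 overlap the antisense gene Prox1os, and the libraries carry no strand information.

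Stxbp6 encodes amisyn, a SNARE-binding protein that restrains vesicle fusion (chromosome 12, 44852484 to 45074709, minus strand). In saline EGFP- cells it ran from 0 to 1313 CPM with a median of 242.5, and in KA EGFP- cells from 0 to 599 CPM with a median of 0. Most saline cells were high and most KA cells were at 0, although the ranges overlapped. The pooled level, all counts of the group together, was 345 CPM after saline (95% Poisson interval 341 to 348) and 22.6 CPM after KA (22.1 to 23.2). More than 57% of the KA counts came from 1 cell, title M39, and without it the pooled KA level was 9.88 CPM. Stxbp6 was counted after thinning in 20 of 27 saline (53.7 to 88.9%) and 8 of 36 KA EGFP- cells (10.1 to 39.2%).

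Dock10 encodes an exchange factor that activates Cdc42 and Rac GTPases, which shape dendritic spines (chromosome 1, 80501073 to 80758527, minus strand). Its median was 172 CPM in saline EGFP- cells (0 to 908) and 8.69 CPM in KA EGFP- cells (0 to 327). It differed from Stxbp6 in that many KA cells had a low level. It was counted after thinning in 21 of 36 KA EGFP- cells (40.8 to 74.5%) against 21 of 27 saline EGFP- cells (57.7 to 91.4%). Among cells with at least 10 CPM, the median was 62.1 CPM after KA and 281 CPM after saline. The mean log2 level was 3.05 (SD 3.04) after KA and 5.80 (SD 3.45) after saline, a difference of -2.75.

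Plk5 encodes a polo-like kinase family member that is expressed in neurons and glia rather than in dividing cells (chromosome 10, 80356459 to 80365489, plus strand). It was patchy even after saline, with 0 to 2015 CPM and a median of 0.304, and it reached 10 CPM in 12 of 27 cells (25.5 to 64.7%). After KA it reached 10 CPM in 1 of 36 EGFP- cells (0.0703 to 14.5%), title M39 with 280 CPM. The other 35 KA cells lay at 0 or under 1 CPM. Without that cell the pooled KA level fell from 6.08 to 0.0113 CPM, against 215.2 CPM in saline EGFP- cells. The saline level also leaned on 1 cell, title M208 with 2015 CPM, and was 143 CPM without it.

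Trpc6 encodes a cation channel gated by diacylglycerol (chromosome 9, 8544142 to 8680741, plus strand). It ran from 0 to 1379 CPM with a median of 1.20 in saline EGFP- cells, and from 0 to 2077 CPM with a median of 144 in KA EGFP- cells. Cells with at least 10 CPM made up 24 of 36 after KA (49.0 to 81.4%) and 12 of 27 after saline (25.5 to 64.7%). The mean log2 level was 5.20 (SD 3.94) against 3.67 (SD 4.01), a difference of 1.53. Pooled levels were close, with 200 CPM after KA (198 to 201.3) and 187 CPM after saline (184 to 189), and the difference was 0.23 within the second series. The step thus lay in the number of cells with the transcript and in the first series, and the intervals of the shares overlapped.

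Ahcyl2 encodes a relative of S-adenosylhomocysteine hydrolase that binds and regulates ion transporters (chromosome 6, 29768011 to 29912310, plus strand). Its median was 162 CPM in saline EGFP- cells (0 to 5266) and 54.8 CPM in KA EGFP- cells (0 to 1495). It was the member most saline cells held, in 24 of 27 after thinning (70.8 to 97.6%), and 27 of 36 KA cells held it (57.8 to 87.9%). The mean log2 level was 4.88 (SD 3.55) against 6.79 (SD 3.09), a difference of -1.90, and -3.60 without the cells rich in microglia markers. Of its exon bases, 288 overlap a transcript of the other strand, 4930528J11Rik.

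Per kilobase of exon, the order of the members differed between the groups. Mean levels over saline EGFP- cells were 68.4 CPM per kb for Plk5 (SD 153), 66.2 for Stxbp6 (SD 69.1), 35.9 for Trpc6 (SD 66.6), 30.3 for Prox1 (SD 41.2), 24.9 for Ahcyl2 (SD 54.9) and 12.9 for Dock10 (SD 15.2). The mean of Plk5 leaned on title M208 with 2015 CPM. Its median was 0.114 CPM per kb, against 45.8 for Stxbp6. After KA, the EGFP- cells had mean levels of 48.2 CPM per kb for Trpc6 (SD 79.7), 28.01 for Prox1 (SD 33.996), 11.03 for Ahcyl2 (SD 19.8), 5.77 for Stxbp6 (SD 19.9), 2.91 for Plk5 (SD 17.4) and 2.31 for Dock10 (SD 3.77). In both groups the gap between any pair of neighbours in the order was smaller than the SD over cells of either gene, so neighbours did not differ beyond their spread.

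Both treatments occur in the second series alone, with 27 saline and 15 KA EGFP- cells. There, too, 3 of 6 members were lower by 2 or more log2 units after KA, but so were 12.9% of 8175 measured genes, and the median difference was -2.30 for the members and -0.58 for all genes. Stxbp6 reached 0.154 CPM at most in these 15 KA cells and had no count in 14 of them, while its saline median was 242.5 CPM. Plk5 had no count in any of the 15. A count of 0 in 15 cells allows a share of up to 20% of cells.

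The titles of this series run in blocks of 1 treatment, 3 of saline and 3 of KA. The mean log2 level of Stxbp6 was 5.36, 6.70 and 6.04 in the saline blocks (titles M203 to M208, M219 to M232 and M243 to M261) and 0, 0 and 0.04 in the KA blocks (M209 to M216, M234 to M238 and M266 to M272). For Plk5 it was 3.22, 2.32 and 4.21 in the saline blocks and 0 in all 3 KA blocks. Every saline block thus lay above every KA block for these genes, although the KA block M234 to M238 has only 2 EGFP- cells. For Dock10 the saline blocks were at 7.05, 5.90 and 5.27 and the KA blocks at 1.97, 1.98 and 5.16, so that the last blocks of each treatment nearly met.

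Prox1 went from 7.46 to 5.49 and 4.54 over the saline blocks and stood at 3.77, 4.34 and 3.11 in the KA blocks. Every saline block thus lay above every KA block for Prox1 too, although the lowest saline and the highest KA block were close. In the KA blocks 8 of 15 cells had no Prox1 count. Trpc6 overlapped between treatments, with 3.65, 2.07 and 4.32 after saline and 3.72, 3.70 and 4.26 after KA. Ahcyl2 stood at 6.91, 6.59 and 6.82 after saline and at 3.24, 4.94 and 7.70 after KA, where the last KA block lay above all saline blocks. Block, unknown mouse and treatment cannot be told apart in these titles.

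**Figure D2:**
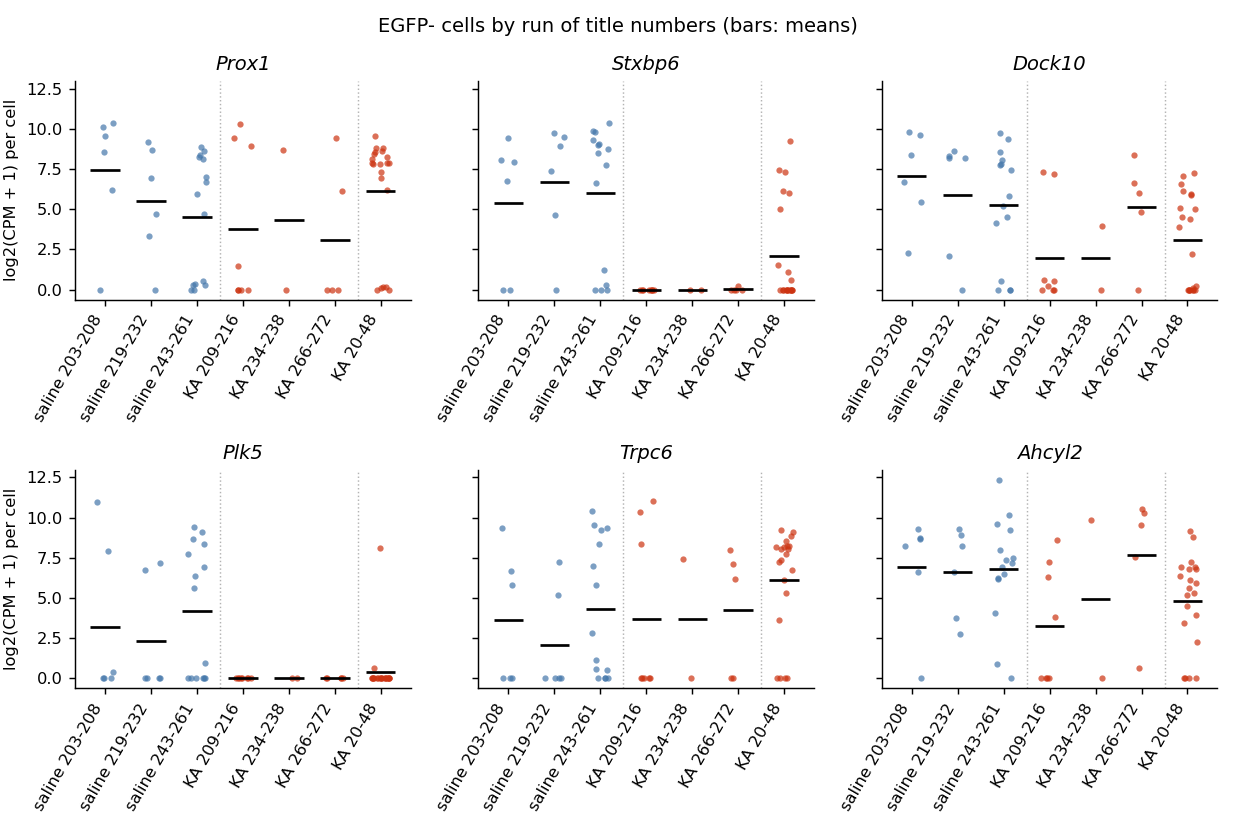
Level of each member in EGFP- cells, as log2(CPM + 1), by block of consecutive titles of 1 treatment; points are cells, bars are means, and dotted lines part saline blocks, KA blocks of the second series and KA titles M20 to M48 of the first series. Stxbp6 and Plk5 lie at or near 0 in the 3 KA blocks of the second series, whose mean levels are 0 to 0.04 for Stxbp6 and 0 for Plk5.

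The KA EGFP- cells of the first series (21 cells, titles M20 to M48) differed from those of the second in several members. Mean log2 levels were 6.15 (SD 3.55) and 3.63 (SD 4.49) for Prox1, 6.13 (SD 3.31) and 3.90 (SD 4.46) for Trpc6, and 2.12 (SD 3.19) and 0.01 (SD 0.05) for Stxbp6. Dock10 (3.06 and 3.04) and Ahcyl2 (4.83 and 4.95) stood level. Number of genes per library moves with this split, as given above, and its part in the values was not tested.

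In libraries with at least 4000 genes with a count, the contrast of Plk5 between KA and saline EGFP- cells was sharper. Of 15 such saline EGFP- cells, 11 held Plk5 after thinning (44.9 to 92.2%), against 1 of 24 KA EGFP- cells (0.105 to 21.1%). Stxbp6 was held by 12 of 15 (51.9 to 95.7%) and 8 of 24 cells (15.6 to 55.3%). Dock10 differed by -4.10, Ahcyl2 by -2.91, Prox1 by -0.60 and Trpc6 by 1.40 in these cells. Thus the differences of Stxbp6, Plk5, Dock10 and Ahcyl2 were as large or larger in the richer libraries. All 15 of these saline cells are of the second series, as are only 4 of the 24 KA cells. The comparison therefore sets mostly first-series KA cells against second-series saline cells, and the part of the title series was not tested.

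After KA, Stxbp6 and Dock10 lay higher in EGFP+ cells, which send an axon across the midline, than in EGFP- cells. In 27 EGFP+ cells Stxbp6 ran from 0 to 612 CPM with a median of 28.5, and in the 36 EGFP- cells the median was 0. The mean log2 level was 3.75 (SD 3.77) against 1.24 (SD 2.63), a difference of 2.51, and pooled levels were 113 CPM (111 to 114) and 22.6 CPM. Of 5 measured members, Stxbp6 alone was higher by 2 or more log2 units, a step that 1.30% of 10039 genes reached.

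Dock10 had a median of 50.3 CPM in KA EGFP+ cells (0 to 554) and a mean log2 level of 4.62 (SD 3.66), 1.57 above that of EGFP- cells. Pooled levels were 131 CPM (129 to 133) and 31.8 CPM (31.1 to 32.4). Prox1 (median 100.5 CPM, 0 to 850) and Trpc6 (median 241.5 CPM, 0 to 3115) were 0.85 and 0.81 higher. Ahcyl2 (median 36.3 CPM, 0 to 467) was 0.44 lower, and each of these differences lay far inside the SD over cells. Those of Stxbp6 and Dock10 were also smaller than the SD within groups, which was 3.25 and 3.36. Plk5 was held by 3 of 27 EGFP+ cells after thinning (2.35 to 29.2%) and by 1 of 36 EGFP- cells, with pooled levels of 16.8 and 6.08 CPM, and title M5 with 304 CPM carried 84.5% of its counts in the EGFP+ group.

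The Stxbp6 difference between the EGFP classes was 1.67 in the first series, 2.28 in titles M20 to M48, which mix the classes, and 3.42 in the second series, which has 3 EGFP+ cells. It stayed positive under all 12 alternatives (1.43 to 3.53). That of Dock10 also kept its sign under all 12, from 0.38 in titles M20 to M48 to 2.51 in cells with at least 4000 genes. Trpc6 differed by -0.65 in the first series and by 6.39 in the second, where all 3 EGFP+ cells had 601 CPM or more. Microglia markers were richer in EGFP+ cells, and without the cells rich in them the differences were 3.43 for Stxbp6 and 1.24 for Dock10.

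After saline, the 5 EGFP+ cells did not share a pattern. Prox1 was at 461, 0, 0, 2.18 and 0 CPM (titles M222, M230, M247, M252 and M258), and Stxbp6 at 248.9, 0, 113, 1.45 and 0 CPM. Dock10 was at 186, 402, 216.4, 2.90 and 487 CPM, and it lay above 100 CPM in 4 of the 5 cells. Plk5 was at 70.7, 0.371, 0, 0.725 and 0 CPM.

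Trpc6 stayed at 0.492, 0, 0, 1.45 and 0 CPM in these cells, and Ahcyl2 was at 80.4, 13.7, 818, 1.45 and 0 CPM. Title M222 carried almost all Prox1 and Plk5 counts of the group, and without it the pooled levels of these genes fell from 176 to 0.303 CPM and from 27.1 to 0.202 CPM. Title M252 had 0.725 to 2.90 CPM of each of the 6 genes. Compared with 27 saline EGFP- cells, 5 of 6 members were lower by 2 or more log2 units, as were 16.3% of 8637 genes. Dock10 was 1.17 higher.

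The comparison of KA with saline in EGFP+ cells rests on the same 5 cells. Of 5 measured members, 2 were higher by 2 or more log2 units after KA (Trpc6 by 5.64 and Prox1 by 3.85), as were 31.2% of 10102 genes. Dock10 was 2.35 lower, a step in that direction that 3.56% of genes reached. Stxbp6 differed by 0.53, Ahcyl2 by 0.21 and Plk5, which was not measured in enough cells, by -0.92. With the group of the title before, Prox1 turned to -0.22 and Trpc6 to -0.53. Without the cells rich in microglia markers, which leaves 1 saline cell, Dock10 turned to 2.32.

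**Figure D3:**
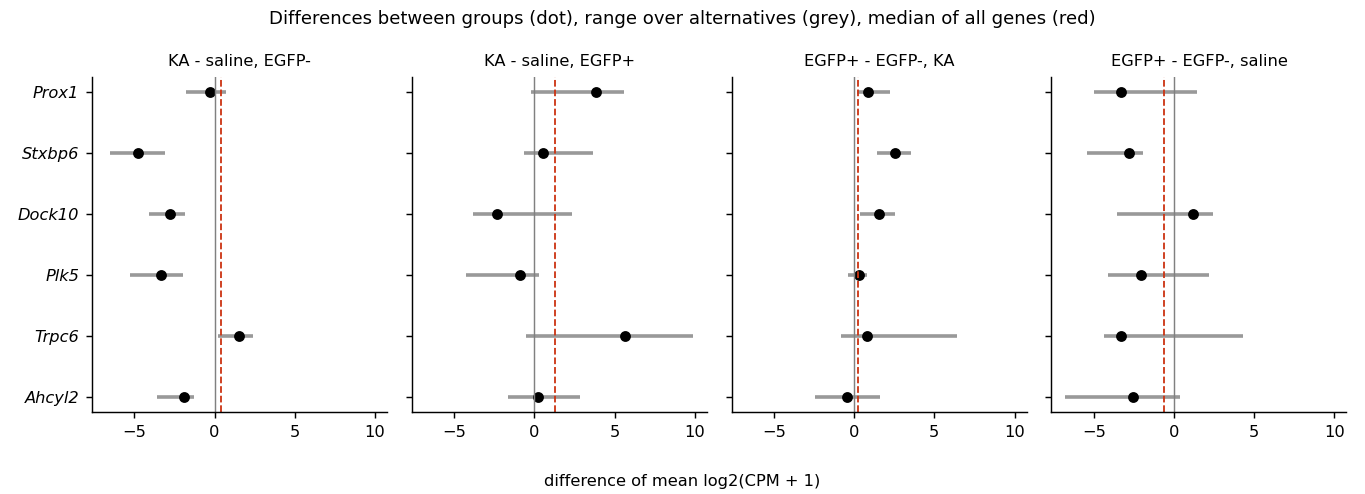
Difference of mean log2(CPM + 1) of each member in the 4 comparisons (dot), its range over the alternatives (grey line) and the median difference of all measured genes (dashed line). The range stays below 0 for Stxbp6, Dock10, Plk5 and Ahcyl2 in KA against saline EGFP- cells, and it spans 0 for all 6 members in KA against saline EGFP+ cells and for 5 in EGFP+ against EGFP- cells after saline.

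The number of members a cell held after thinning showed which were lost together. The mean after saline was 4.19 of 6 in EGFP- and 3.40 in EGFP+ cells, and after KA 2.92 in EGFP- and 3.74 in EGFP+ cells. All 6 were held after saline by 5 of 27 EGFP- and 1 of 5 EGFP+ cells, and after KA by 1 of 36 EGFP- and 1 of 27 EGFP+ cells. At least 4 of 6 were lacking after saline in 2 of 27 EGFP- and 2 of 5 EGFP+ cells, and after KA in 14 of 36 EGFP- and 5 of 27 EGFP+ cells. With 10 CPM as the threshold these became 6 and 3 cells after saline, and 19 and 7 after KA. After thinning, a cell that lacked all 6 was found once after saline and 3 times after KA, all EGFP- cells. These cells had 1469 to 2709 genes with a count, and no cell with at least 4000 genes lacked all 6. With 10 CPM as the threshold, 6 of 95 cells lacked all 6. Among them was the saline EGFP+ cell M252, with 4015 genes and a low count of each member. Absence of the whole group at once was thus rare, while absence of some members was common. Only after thinning was it confined to libraries with few genes.

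Which pair was most often lacking together depended on the group. In saline EGFP- cells it was Plk5 and Trpc6, in 9 of 27 cells. Among KA EGFP- cells it was Stxbp6 and Plk5, which 28 of 36 lacked, against 6 of 27 saline EGFP- cells and 10 of 27 KA EGFP+ cells. Since Plk5 was lacking in 35 and Stxbp6 in 28 of the 36 cells, the joint count could only be 27 or 28 and reflects how rare each gene was. These cells were not empty of the other members: 17 of the 28 held Prox1, 17 held Trpc6, 13 held both of these, and 12 of the 13 also held Ahcyl2. Dock10 was lacking as well in 14 of the 28, of which 9 held Prox1. All 15 KA EGFP- cells of the second series lacked Stxbp6 and Plk5, and 7 of them held Prox1.

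**Figure D4:**
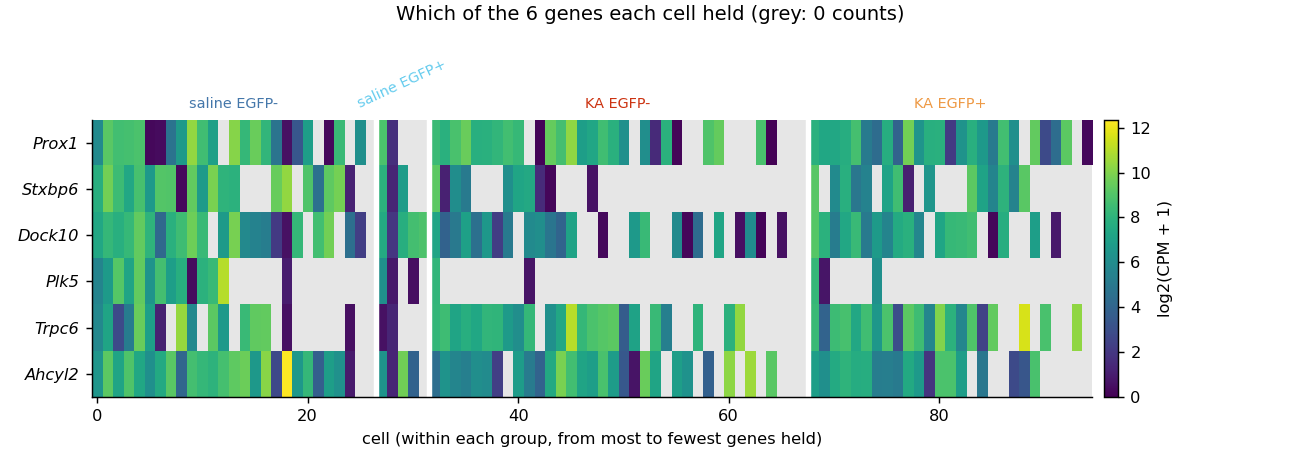
Level of each member (rows) in each of 95 cells (columns), ordered within each group from cells with most to cells with fewest members held after thinning; colour gives log2(CPM + 1) and grey 0 counts. In KA EGFP- cells the Plk5 row is grey in 34 of 36 cells and the Stxbp6 row in 26, while the rows of Prox1 and Trpc6 are grey in 10 and 12.

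Loss of one member went with loss of another to different degrees. Over all 95 cells, every one of the 18 cells that held Plk5 held Ahcyl2 as well, while 27.3% of the 77 without Plk5 lacked Ahcyl2. Of 49 cells without Stxbp6, 93.9% lacked Plk5, against 67.4% of cells with Stxbp6. These shares pool groups with different levels of both genes: the shares were 85.7 and 40% in saline EGFP- cells, but 83.3 and 93.3% in KA EGFP+ cells. Within KA EGFP- cells, Dock10 was lacking in 14 of 28 cells without Stxbp6 and in 12.5% of the 8 cells with it. Dock10 was lacking equally often with and without Prox1 there (41.7% each).

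For Prox1 and Trpc6 the groups differed. Among KA EGFP- cells Trpc6 was lacking in 58.3% of 12 cells without Prox1 and in 20.8% of 24 cells with it. In KA EGFP+ cells both cells without Prox1 held Trpc6, and in saline EGFP- cells Trpc6 was lacking in 37.5% of 8 cells without Prox1 and in 42.1% of 19 with it. With a threshold of 10 CPM in place of thinning, the most frequent set was Prox1, Dock10, Trpc6 and Ahcyl2 without Stxbp6 and Plk5, in 14 cells, of which 3 were EGFP- after saline, 6 EGFP- after KA and 5 EGFP+ after KA. The same set with Stxbp6 added was found in 8 cells, of which 5 were KA EGFP+, and the full set in 6, of which 4 were saline EGFP-.

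Correlations over cells were weak. With the mean of each group within each title series subtracted, the 15 pairs of members had Pearson correlations of log2(CPM+1) from 0.04 (Stxbp6 and Trpc6) to 0.33 (Stxbp6 and Plk5) over 95 cells, with a median of 0.21. Dock10 and Ahcyl2 (0.32) and Dock10 and Plk5 (0.25) came after the highest pair. The median over all pairs of 8899 genes counted in at least 25% of cells was 0.0928. Plk5, counted in 23.2% of cells, is not among those genes but enters the member pairs. In cells with at least 4000 genes the median of the member pairs was 0.128. Points share the library of the cell, so that its depth and number of genes enter every pair.

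The number of members at 10 CPM or more went with the content of the library. Its Pearson correlation with the number of genes with a count was 0.58 over 95 cells (Spearman 0.58), and 0.59, 0.63 and 0.76 within EGFP- cells after saline, EGFP- cells after KA and EGFP+ cells after KA, in this order. With the number of 20 other granule cell genes at that level it was 0.83 (Spearman 0.81), with 12 general neuronal genes 0.62 and with 12 housekeeping genes 0.38. In KA EGFP- cells with at least 4000 genes, the correlation with the other granule cell genes was 0.81 (24 cells). That with number of genes was 0.33 and that with housekeeping genes 0.06. The housekeeping number was 11 or 12 in each of these KA cells, and in most of all 95 cells. It thus left little room for a correlation, and its low values cannot be set against the others. In 20 KA EGFP+ cells with at least 4000 genes the values lay closer, at 0.54 with the other granule cell genes and 0.44 with number of genes. In 15 saline EGFP- cells with at least 4000 genes the correlation with the other granule cell genes was 0.72, but 0.34 without the 2 cells farthest from the median. These are descriptions over cells that share mice in an unknown way.

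**Figure D5:**
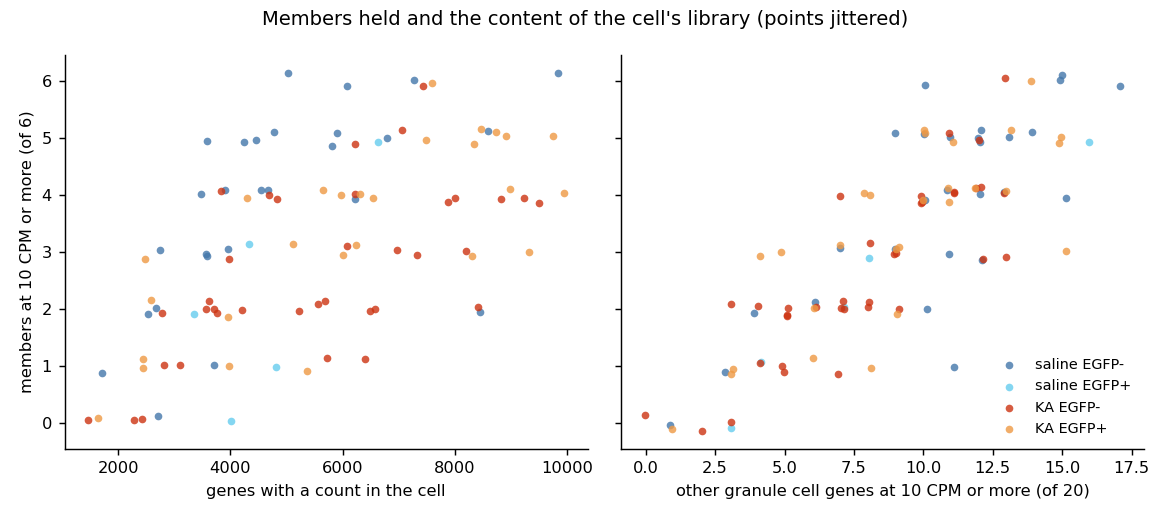
Number of members at 10 CPM or more in a cell against its number of genes with a count (left) and against its number of 20 other granule cell genes at 10 CPM or more (right); points are cells, slightly displaced, coloured by group. The points follow the right axis more closely (Pearson correlation 0.83) than the left (0.58).

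Genes whose levels over cells were most like those of a member were ranked among 8894 genes with the group means subtracted. Closest to Prox1 were Dgkh (0.56), Dctn1 (0.54) and Rapgefl1 (0.49). Stxbp6 and Dock10 shared the same closest gene, the anoctamin gene Ano3 (0.49 and 0.51), followed by Cat and Ctxn1 for Stxbp6 and by Arhgef2 and Trip12 for Dock10. Closest to Plk5 were Capn2 (0.55), Pak1 (0.52) and Cygb (0.49), to Trpc6 Arhgap21 (0.53), Mat2a (0.52) and Edem3 (0.52), and to Ahcyl2 the calbindin gene Calb1 (0.50), Prkca (0.49) and 2010300C02Rik (0.48). Of these, Cygb differed between KA and saline EGFP- cells by -4.46 and Ano3 by -3.81. Dgkh (-2.35), Calb1 (-2.65) and Ctxn1 (-2.72) also lay lower, while Trip12 was 1.94 higher.

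The other 20 granule cell genes gave a background to the members in KA against saline EGFP- cells. They too were chosen with earlier results of these data known. Of 17 that were measured, 12 were lower and 5 higher, 7 were lower by 2 or more, and the median was -1.10. Largest was the difference of C1ql2, a synaptic organiser of mossy fibres (-5.96), and the vesicle protein gene Synpr (-3.33), the zinc finger gene Bcl11b (-2.82) and Calb1 (-2.65) also lay lower. The transcription factor genes Neurod2 (-0.64), Zbtb20 (-0.20) and Neurod1 (0.35) stood near Prox1 with small differences. Transcription factor genes of the list did not all do so, since Bcl11b, which also encodes one, lay 2.82 lower. Within the second series 16 of 17 were lower, with a median of -1.73, against -0.63 for 12 general neuronal genes and -1.55 for 12 housekeeping genes. There, Neurod2 was 1.45 lower and Zbtb20 0.32 lower.

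The closest relatives of the members were read in the same cells. Of 8 measured paralogs, 2 were lower and 6 higher in KA EGFP- cells, with a median of 1.03 against 0.43 for all genes. Stxbp5, which encodes tomosyn, was 1.54 higher where Stxbp6 was lower. Dock11 was 1.14 higher where Dock10 was lower, while Dock9 at 0.31 lay below the median of all genes. Plk2, a kinase gene induced by activity, stood at 9.87 and 10.07 on the log2 scale, a difference of -0.20, while Plk5 was nearly absent after KA. Ahcyl1 was 0.56 lower, the same direction as Ahcyl2. In the second series 6 of 7 measured paralogs lay lower, with a median of -0.54 against -0.58 for all genes. Ahcyl1 was at -1.32, Plk2 at -0.98, Stxbp5l at -0.54 and Dock9 at -0.02, and Stxbp5 was 0.40 higher. Dock11 was counted in too few cells to be measured there.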

How the data were processed

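Reads of single cells were processed by the authors with Trimmomatic, STAR, featureCounts and kallisto on build GRCm38, per the submitters' processing notes, which give no version or role. The deposited counts are whole read numbers per gene symbol for 115 cells and, in a second table with identical values, for 95 kept cells. The deposited normalized signal is the count times 1 factor per cell, whose origin is not stated. Here the kept cells were used, with groups from their labels. The 92 spike-in rows (6 counts) were left out.

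Counts were scaled to CPM over all genes, averaged as log2(CPM+1), and thinned to 1000000 per cell (seed 1), where a gene with a count was called held; 10 CPM without thinning served as the other rule. A gene was measured if counted in at least 20% of the cells compared. Shares have exact Clopper-Pearson and pooled CPM exact Poisson 95% intervals, which cover counting error only. No test was made, because each group is 1 sample of unknown mice. Named genes are the 6 members, the 3 genes of highest correlation with each (counted in at least 25% of cells), and measured genes of the paralog and granule cell lists. A gene of the granule cell list is not reported here by name. The members and lists were chosen with earlier results of these data known. Strand was not recorded, so reads of overlapping genes cannot be told apart. Exon lengths and coordinates are from GENCODE, and scripts (Python 3.11.15, pandas 2.3.3, scipy 1.17.1) were tested on simulated data. Leaving out the cell with most counts of a gene was chosen after seeing the data.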

Additional observations from a re-analysis of the deposited data

Results flagged for a closer look

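In the group of 5 saline EGFP+ cells, 3 values stood far from the other cells of the group on the log2(CPM+1) scale. The highest Prox1 level was 8.85 (title M222), the highest Plk5 level was 6.16 (same cell), and the lowest Dock10 level was 1.96 (title M252). Chance alone marks about 1 in 20 groups of this size, and 6 genes were looked at. That rate was not estimated for values such as these, where Prox1 and Plk5 were at 0 in some of the 5 cells. Title M222 also carried the most counts of the 5 cells (6094406), and title M252 was the only one of them under 0.1% of counts in microglia markers. The part of depth in these values was not tested.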

How the results depend on the processing

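Of 391 recomputed values over 33 results, 358 moved by less than the spread used for them, 25 moved by more, and 8 differences of at least 2 log2 units turned sign. Counting small differences too, 35 of 348 alternative values of the 24 member differences were 0 or of the other sign. In KA against saline EGFP- cells, the differences of Stxbp6, Dock10, Plk5, Ahcyl2 and Trpc6 kept their sign under all 14 alternatives, and that of Prox1 under 10 of 14. With the group of the title before, KA minus saline in EGFP+ cells turned to -0.22 (Prox1) and -0.53 (Trpc6) and moved to -4.27 (Plk5), and EGFP+ minus EGFP- after saline turned to 1.43 (Prox1), 2.19 (Plk5), 4.31 (Trpc6) and 0.35 (Ahcyl2). Without cells rich in microglia markers, Dock10 became 2.32 in KA against saline EGFP+ cells, and Dock10 -3.60 and Ahcyl2 -6.83 in EGFP+ against EGFP- after saline (1 EGFP+ cell). Leaving out titles M243 to M261 turned Plk5 to 0.54 there (2 EGFP+ cells), the highest of its leave-one-out values, with -3.66 the lowest. In the second series Trpc6 became 9.92 in KA against saline EGFP+ cells and 6.39 in EGFP+ against EGFP- after KA. Cells lacking at least 4 members became 6 (under 10 CPM), 0 (at least 4000 genes) and 0 (few microglia markers) of saline EGFP- cells. Of saline EGFP+ cells they became 1 with no thinning, with another seed, with cells labelled as passed and with at least 4000 genes, and 0 with few microglia markers. They became 5 of 24 KA EGFP- cells with at least 4000 genes and 9 of 15 in the second series, and 1 of 20, 0 of 3 and 3 of 17 KA EGFP+ cells with at least 4000 genes, in the second series and with few microglia markers. The share of all genes lower by 2 or more became 0.958%, 1.97%, 0.0700% and 6.14% with no filter in the 4 comparisons (KA against saline in EGFP- and EGFP+ cells, EGFP+ against EGFP- after KA and after saline), and 0.265% and 25.7% in the last 2 with a count in at least 50% of cells. The median member correlation was 0.128 in cells with at least 4000 genes. The cause of each was not tested, beyond the smaller number of cells or genes. No paired analysis was possible because replicate numbers only name cells and no label ties a cell to a mouse.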

Other observations

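The 20 cells that the authors left out, with a median of 474183 counts and 1178.5 genes, held fewer members. At 10 CPM or more, Prox1, Stxbp6 and Dock10 were each found in 2 of 20, Trpc6 in 3, Ahcyl2 in 4 and Plk5 in 5, with a highest Plk5 level of 1865 CPM.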
